A study of Rattus norvegicus with 6 samples.

Results

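Transcripts of 8 ionotropic glutamate receptor genes were followed in the vestibular sensory epithelium of rats exposed to a hair cell (HC) toxicant. The genes were picked by symbol: Gria1, Gria2, Gria3 and Gria4 encode the AMPA receptor subunits GluA1 to GluA4, Grin1, Grin2a and Grin2b encode the NMDA receptor subunits GluN1, GluN2A and GluN2B, and Grid1 encodes the delta receptor subunit GluD1. All 8 were found among the 32883 genes of the table. They were chosen with their levels in these same libraries already known, so their differences between the groups are given as a description and no p is attached to them.

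The samples came from 6 adult male Long-Evans rats, 3 in each group. The IDPN-4wk group had drinking water containing 20 mM 3,3'-iminodipropionitrile (IDPN), a nitrile that damages HCs, for 4 weeks, and the Control group had water without it. Each library was made from the utricles and cristae of a single animal, which were cleaned of adjoining tissue and pooled. It thus holds sensory epithelium with its nerve endings and supporting cells, and any adjoining tissue that remained. The treated animals share a prefix in their animal codes that no Control animal has, and what that prefix marks cannot be told apart from the treatment.

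Ionotropic glutamate receptors are ligand-gated channels assembled from 4 subunits. AMPA receptors open and close fast and carry most of the excitatory current at many synapses, and those that hold an edited GluA2 subunit let little calcium through. NMDA receptors need the obligatory GluN1 subunit together with GluN2 subunits, and pass calcium when the membrane is depolarized. Delta receptors resemble both in sequence but act mainly as adhesion and organizing proteins at synapses. Vestibular HCs release glutamate onto afferent terminals, and type I HCs are enclosed by a calyx terminal of the afferent neuron. The cell bodies of these neurons lie in the vestibular ganglion, outside the dissected epithelium.

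The bases before the transcription start are shown for Gria4 and Grin1, which are members of different receptor classes and were both lower in every IDPN-4wk library. They were the 2 members with an entry in the RefSeq promoter table used (build GRCr8, which is not the build the reads were mapped to). Each line gives the 250 bases before the start site, 5′ to 3′ on the minus strand. Capitals mark matches on either strand to the motifs searched, which were chosen after the sequences had been seen. One motif was the E-box form spelled CAGCTG. The next was the core of the cAMP response element, which is TGACG. The others were the binding word of Sp family factors, written GGGCGG, and the promoter element spelled TATAAA.
Gria4, chr8:10319882-10320131: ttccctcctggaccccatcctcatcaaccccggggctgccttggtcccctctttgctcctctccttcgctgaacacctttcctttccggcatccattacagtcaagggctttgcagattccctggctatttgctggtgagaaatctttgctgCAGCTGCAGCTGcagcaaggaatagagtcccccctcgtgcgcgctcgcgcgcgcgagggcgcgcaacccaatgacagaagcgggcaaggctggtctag
Grin1, chr3:28528755-28529004: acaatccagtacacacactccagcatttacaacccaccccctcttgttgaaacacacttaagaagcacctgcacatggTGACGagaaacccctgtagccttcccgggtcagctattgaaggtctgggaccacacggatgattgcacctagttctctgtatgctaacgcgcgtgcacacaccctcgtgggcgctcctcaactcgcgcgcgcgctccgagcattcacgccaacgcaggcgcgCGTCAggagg

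The Gria4 window held CAGCTG at 2 adjacent positions that do not overlap, and none of the other motifs. The Grin1 window held 2 matches to TGACG, of which the second is on the opposite strand, and none of the others. Of the 33469 promoters searched over the same length, 12.0% held CAGCTG at least once and 1.04% at 2 or more positions. TGACG was found in 18.2% of the promoters, at 2 or more positions in 3.98%, while GGGCGG was found in 30.5% and TATAAA in 12.9%. GC content was 59.6% for Gria4 and 57.6% for Grin1, beside a median of 51.2%. These matches describe letters in a window and are not mapped binding sites.

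Depth was from 13358678 to 18561991 counts per library. Values below are CPM, the counts of a gene relative to the total of its library after TMM scaling, a correction for differences in RNA composition. Means carry the SD over 3 libraries, and log2FC is the log2-Fold change of IDPN-4wk against Control. One count was worth 0.0516 to 0.0719 CPM, and a library with 0 counts allows a level of up to 0.155 to 0.216 CPM (3 counts). These limits cover counting error only. CPM is not divided by transcript length, so levels are compared between groups for 1 gene and not between genes. HC markers were present in every library, with a summed level of 12 markers from 3608 to 3730 CPM in Control and from 2341 to 2781 CPM in IDPN-4wk.

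Of the 3 AMPA receptor genes that passed the filter on low counts, Gria4 showed the largest difference. Its level (ENSRNOG00000006957) was 98.3, 90.4 and 96.3 CPM in the Control libraries and 22.4, 21.0 and 29.9 CPM in the IDPN-4wk libraries. The groups were far apart and the Control values lay close together. The mean went from 95.04 ± 4.11 CPM to 24.4 ± 4.76 CPM (SD, n = 3 each), which is 25.7% of Control, with a log2FC of -1.96 (SE 0.12). Of the 14352 genes tested across the table, 1.04% had a log2FC at or under that of Gria4. In such bulk tissue, fewer cells that carry a transcript and less of it per cell cannot be told apart.

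Gria2, whose subunit sets the calcium permeability of the receptor, was lower in a similar pattern but by less. Gria2 (ENSRNOG00000054204) was at 61.3, 84.8 and 70.7 CPM in the Control libraries and at 26.7, 28.6 and 33.2 CPM in IDPN-4wk libraries. The lowest Control library was well above the highest IDPN-4wk library. Means were 72.3 ± 11.8 CPM and 29.5 ± 3.36 CPM, so that IDPN-4wk stood at 40.8% of Control (log2FC -1.29, SE 0.13). Across the table, 2.6% of the genes tested had a log2FC as low or lower.

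Gria3, the third subunit gene with more than a trace of expression, differed least. Its CPM (ENSRNOG00000007682) was 20.3, 13.5 and 21.0 in Control libraries against 9.99, 9.96 and 15.8 in IDPN-4wk libraries. The groups overlapped, because Control replicate 2 was below IDPN-4wk replicate 3. The Control mean of 18.3 ± 4.15 CPM compared with 11.9 ± 3.38 CPM after IDPN (SD, n = 3 each), at 65.3% of Control with a log2FC of -0.62 (SE 0.22).

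Gria1 was near the detection limit. It had 11, 10 and 8 counts in the Control and 2, 1 and 4 counts in the IDPN-4wk libraries, and was removed by the filter on low counts. Pooled over each group, its level in IDPN-4wk was 21.7% of Control, with a 95% exact interval from 8.03% to 50.7% that covers counting error only. No overlap was seen between the groups, but the largest count of any library was 11.

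The 4 AMPA receptor genes summed to 181, 190 and 189 CPM in Control and to 59.2, 59.7 and 79.2 CPM in IDPN-4wk libraries, or 35.4% of Control. IDPN-4wk replicate 3 had the highest level of Gria2, Gria3, Gria4 and Gria1 in its group. In Control, replicate 2 had the highest Gria2 and the lowest Gria3 and Gria4, so the Control animals did not differ by a common factor.

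**Figure D1:**
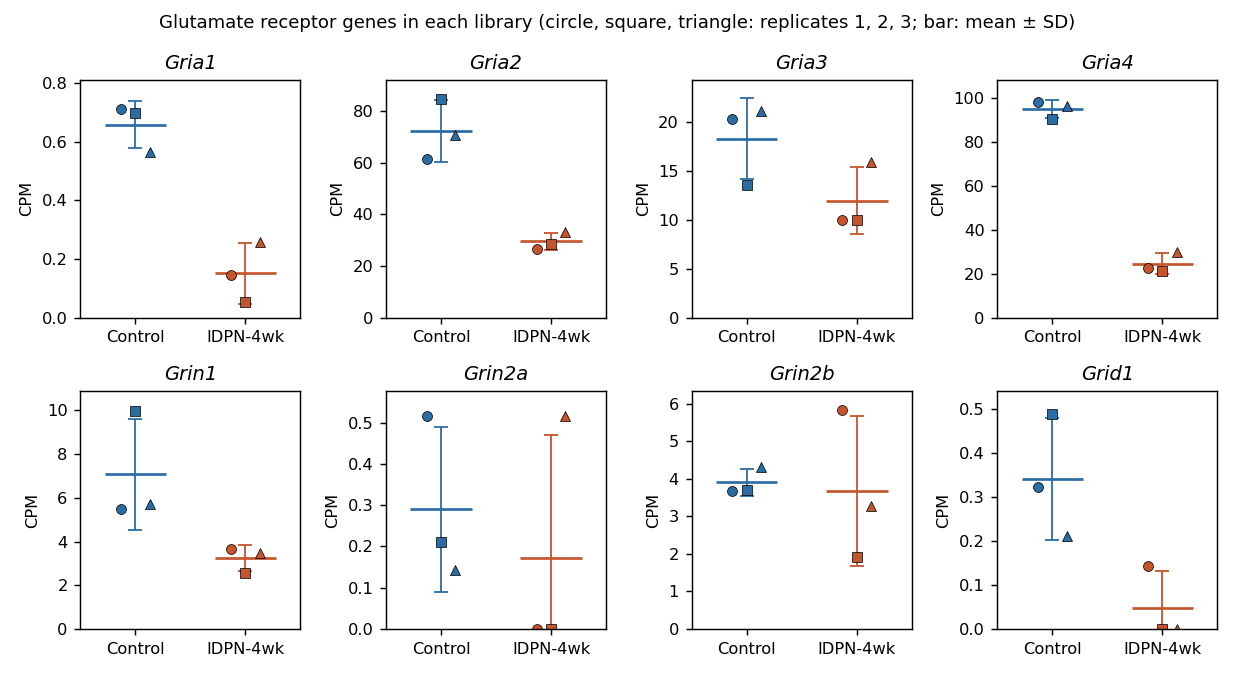
Each panel shows 1 of the 8 genes, with CPM on the vertical axis from 0 and its own scale, 3 Control and 3 IDPN-4wk libraries as points (circle, square and triangle are replicates 1, 2 and 3 of that group), and the mean ± SD as bars. The groups are apart for Gria4 and Gria2, overlap for Gria3 and Grin2b, and rest on at most 11 counts per library for Gria1, Grin2a and Grid1.

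Ratios of 2 genes inside a library do not depend on how libraries are scaled. The count ratio of Gria2 to Gria4 was 0.624, 0.938 and 0.734 in Control and 1.19, 1.36 and 1.11 in IDPN-4wk libraries. All IDPN-4wk ratios were higher, and their mean was 1.60 times that of Control. For Gria3 to Gria4, the ratios were 0.206, 0.149 and 0.218 in Control and 0.447, 0.473 and 0.530 in IDPN-4wk, with a mean 2.53 times higher. The ratio of Gria2 to Gria3 was 3.03, 6.29 and 3.36 in Control and 2.67, 2.88 and 2.10 in IDPN-4wk libraries. It was lower in IDPN-4wk without overlap, though Control replicate 2 alone accounted for much of the distance between the means. Mean levels of the 3 AMPA receptor genes were thus lower by unequal amounts, most for Gria4 and least for Gria3. CPM of Gria3 overlapped between the groups, and the gene was not called. Gene lengths were not used, so the ratios give no proportion of subunits.

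**Figure D2:**
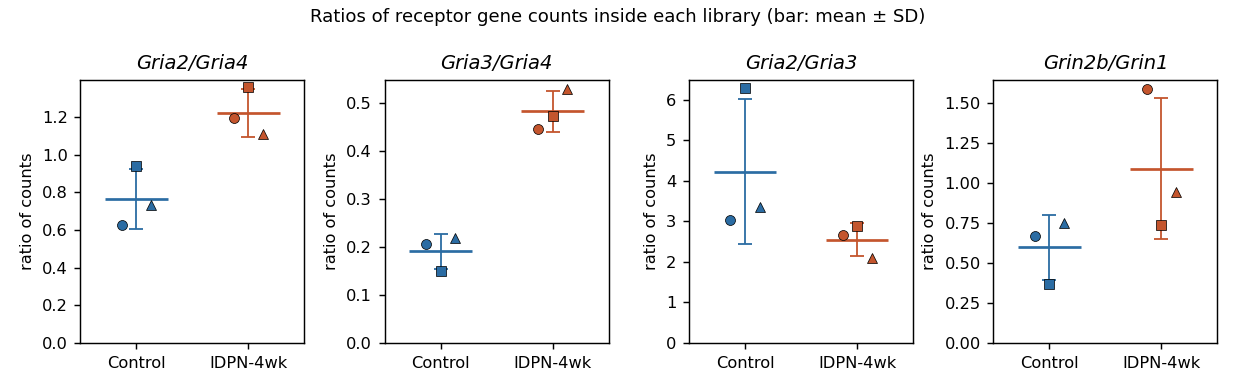
Count ratios of receptor genes inside each library, with the ratio on the vertical axis from 0, points for the 3 libraries of each group and bars for mean ± SD. Gria2/Gria4 and Gria3/Gria4 are higher in every IDPN-4wk library than in any Control library, whereas Grin2b/Grin1 overlaps.

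Among the NMDA receptor genes, Grin1 was lower and Grin2b was not clearly different. Grin1 (ENSRNOG00000011726), the gene of the subunit that every NMDA receptor needs, was at 5.49, 9.99 and 5.73 CPM in the Control libraries and at 3.67, 2.58 and 3.48 CPM in IDPN-4wk libraries. The groups did not overlap, but Control replicate 2 stood well above the other two Control libraries. Means were 7.07 ± 2.53 CPM and 3.24 ± 0.581 CPM, 45.8% of Control (log2FC -1.13, SE 0.29). Without Control replicate 2 the log2FC was -0.80.

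Grin2b (ENSRNOG00000008766), a GluN2 subunit gene, was at 3.68, 3.70 and 4.32 CPM in the Control libraries and at 5.82, 1.91 and 3.28 CPM in IDPN-4wk libraries. The IDPN-4wk libraries lay on both sides of the Control ones, and their spread was wider, with means of 3.90 ± 0.361 CPM and 3.67 ± 1.99 CPM. The log2FC was -0.11 (SE 0.37), and its sign changed with library size alone (0.0031) and without IDPN-4wk replicate 2 (0.22). The ratio of Grin2b to Grin1 was from 0.371 to 0.753 in Control and from 0.740 to 1.59 in IDPN-4wk, so the groups overlapped.

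Grin2a and Grid1 were too scarce to compare with any precision. Grin2a had 8, 3 and 2 counts in Control and 0, 0 and 8 counts in IDPN-4wk libraries. Its pooled level in IDPN-4wk was 55.4% of Control, with a 95% exact interval from 19.9% to 144.0%. Grid1, of a receptor that links to presynaptic neurexins through secreted cerebellins, had 5, 7 and 3 counts in Control and 2, 0 and 0 counts in IDPN-4wk libraries. The pooled Grid1 level was 12.0% of Control, with a 95% exact interval from 1.33% to 51.6%. No Grid1 count in an IDPN-4wk library reached the lowest in Control, and the number of reads limits what can be said of its size.

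A filter on low counts kept 5 of the 8 genes, and all 5 had at least 37 counts in every library of both groups. By the criteria of the study, an adjusted p under 0.05 and a fold change over 1.5, the fit across all genes called 3 of the 8, Gria2, Gria4 and Grin1, each lower in IDPN-4wk. Over the whole table the same fit called 9.71% of the genes tested, 6.62% lower and 3.09% higher. Of the 5 genes tested, the same 3 had groups that did not overlap, which was so, with IDPN-4wk lower, for 19.3% of all genes tested and, in either direction, for 37.8%. Since the 8 genes were selected on this contrast, these counts are not evidence about the family. Gria2 and Gria4 were called in all 6 fits that left out a library. Grin1 was not called without Control replicate 2 or without IDPN-4wk replicate 2, while Gria3 was called without Control replicate 2 (log2FC -0.79), without IDPN-4wk replicate 3 (-0.89) and by DESeq2 (-0.62).

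Markers of the cell types in the tissue were measured beside the receptor genes. The HC marker Myo7a was at 64.4% of Control, Otof, the gene of the HC calcium sensor for transmitter release, was at 43.9%, and Slc17a8, the vesicular glutamate transporter of HCs, was at 17.02%. All 12 HC markers had a log2FC under 0 and 5 of them were called lower (Myo7a, Otof, Slc17a8, Tmc1 and Cdh23), beside 6.62% called lower and 9.71% called in either direction over all genes tested, and the median log2FC was -0.53. The count ratio of Gria4 to Myo7a was 0.418, 0.334 and 0.384 in Control and 0.1497, 0.138 and 0.161 in IDPN-4wk libraries, a mean 0.395 times that of Control. Relative to Otof, Gria4 was at 0.591 times the Control ratio, and relative to Slc17a8 at 1.47 times. Gria4 was thus lower by more than Myo7a and Otof and by less than Slc17a8 in every library.

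Of 12 neuron markers, 10 were tested, 3 were called lower and 2 higher, beside 6.62% lower and 3.09% higher over all genes tested. The median log2FC was -0.37, and the summed level was from 110 to 115 CPM in Control and from 69.6 to 74.4 CPM in IDPN-4wk. Nefl, the light neurofilament subunit of axons, was at 74.1% of Control, and Tubb3 at 81.2%. Gap43, a growth cone protein, fell (log2FC -4.43, edgeR Padj 1.13e-04), and Snap25, a release protein that HCs also use, fell as well (-1.44, edgeR Padj 5.40e-04). Rbfox3, a nuclear protein of mature neurons, also fell (-1.20, edgeR Padj 0.00537). Peripherin, Prph, rose (2.57, edgeR Padj 0.00190), as did the heavy neurofilament subunit Nefh (2.05, edgeR Padj 0.0201). Gap43 passed the filter on low counts through the Control libraries, and Prph, Nefh and Thy1 through the IDPN-4wk libraries, in which they were high. Among the 6 neuron markers over the cutoff of the filter in all 6 libraries, 2 were called lower, Snap25 and Rbfox3, and 0 higher. Elavl4, a neuronal RNA-binding protein, was at 175% of Control (log2FC 0.79, edgeR Padj 0.164) and Thy1, a surface protein, at 222% (1.13, edgeR Padj 0.215), without a call for either, and Stmn2 and Elavl3 were under the filter. Relative to Nefl, the mean Gria4 ratio in IDPN-4wk was 0.348 times and the mean Gria2 ratio 0.550 times that in Control, with no overlap for either.

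Markers of other cell types were read the same way, beside the same shares over all genes tested. The 10 supporting cell markers had a summed level of 12110 to 13550 CPM across Control libraries, against 6890 to 8316 CPM after IDPN. The sums lean on Otog, the highest of the list in Control, whose mean was 6262 CPM without IDPN and 3199 CPM with it. Otog, Otogl, Gjb6 and Sparcl1 were called lower, with a median log2FC of -0.30. Of the 10, 8 had a log2FC under 0. The 2 over 0 were Hes1 (0.36, edgeR Padj 0.0783) and Sox9 (0.24, edgeR Padj 0.0540), neither of them called. Schwann cell markers summed to between 13830 and 17190 CPM and between 10090 and 13700 CPM, with 1 of 10, Pmp22, called lower and a median of -0.42. Melanocyte and dark cell markers had 2 of 7 called lower, Kcnq1 and Slc12a2, and a list median of -0.66. Macrophage markers had 1 of 8 called higher, C1qb (log2FC 0.71), and a list median of 0.22. Of 7 stroma markers, Lum was called lower and Col1a1 higher, with a list median of 0.001. No listed marker found in the table was at 0 in all libraries. The part of any of these cell types in the receptor differences was not tested.

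**Figure D3:**
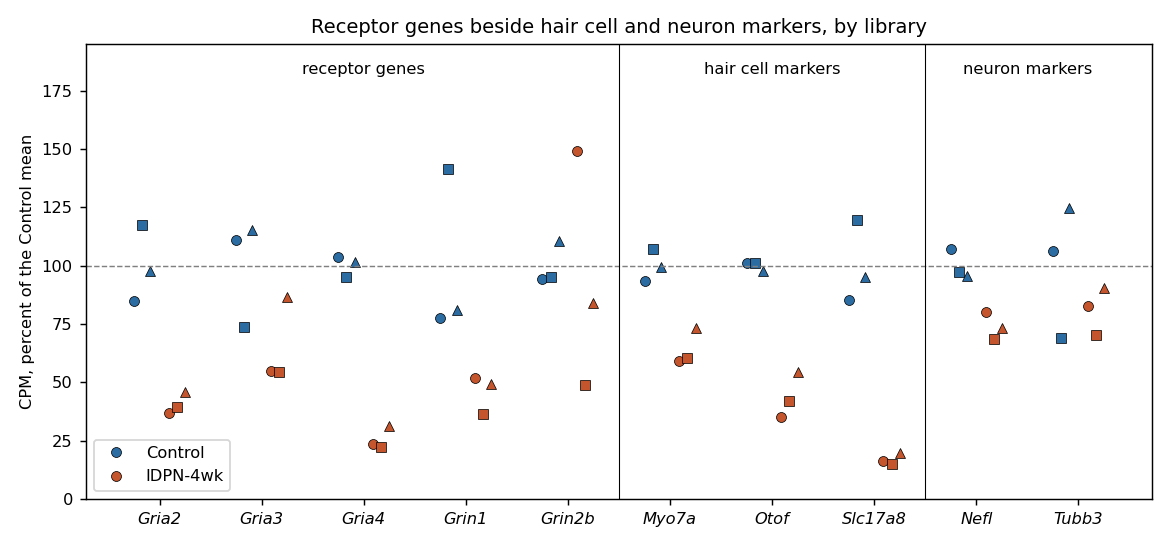
CPM in each library as a percent of the Control mean of the same gene (dashed line at 100), for 5 receptor genes, 3 HC markers and 2 neuron markers, with circle, square and triangle for replicates 1, 2 and 3. Gria4 in the IDPN-4wk libraries lies from 22.1% to 31.4%, above Slc17a8, whose highest is 19.9%, and below Otof, whose lowest is 35.3%.

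The other genes of glutamate signalling were read from 7 lists of the pathway. They held 87 genes, of which 85 were in the table and 58 were tested. The fit called 11 lower and 1 higher, beside 6.62% lower and 3.09% higher over all genes tested, and 33 of the 58 had a log2FC under 0. Without Control replicate 2, 5 were called lower and 0 higher. Of the 11, Cacng2, Grm4, Grm7 and Shank1 were under the cutoff of the low-count filter in at least 1 IDPN-4wk library and passed it through the Control libraries, where they were high. Shank1 was over it in 0 IDPN-4wk libraries, Cacng2 in 1, and Grm4 and Grm7 in 2. A gene as low in both groups as Shank1 or Cacng2 after IDPN would not have been tested. The other 7 were over the cutoff in all 6 libraries. The median was -0.16 beside 0.02 over all genes tested.

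Auxiliary subunits travel with the receptor and tune its gating and transport. Of 14 in the table, 7 were tested and 2 were called, both lower. Cacng2, stargazin, which brings AMPA receptors to the synapse, fell from 1.77 ± 0.128 to 0.608 ± 0.0539 CPM (log2FC -1.52 ± 0.37 SE, edgeR Padj 0.0169). It passed the low-count filter through the Control libraries, with 3 Control and 1 IDPN-4wk libraries over the cutoff. Neto1, an auxiliary protein of kainate and NMDA receptors, fell from 8.91 ± 3.08 to 3.79 ± 0.427 CPM (-1.23 ± 0.28 SE, edgeR Padj 0.0111). The call was lost without Control replicate 2 for both, and for Cacng2 also without Control replicate 1 or IDPN-4wk replicate 1. Prrt1, the listed auxiliary gene with the highest CPM in Control, averaged 15.1 CPM in Control against 14.98 CPM after IDPN (edgeR Padj 0.944), and the median of the list was -0.02.

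The remaining ionotropic receptor genes gave no call. Of 10 genes, which include the kainate receptors and further NMDA and delta subunits, 6 were tested, with a median log2FC of -0.78 and 0 at an unadjusted p under 0.05. The kainate receptor gene Grik2 was at -1.003 on the log2 scale (SE 0.52, edgeR Padj 0.206) and Grik4 at -0.70 (SE 0.40, edgeR Padj 0.251). Of the 6, 4 had a log2FC under 0 and 2 over 0, Grik5 (0.44, edgeR Padj 0.31) and Grin3b (0.49, edgeR Padj 0.457). Counts of Grik2 and Grik4 ranged from 12 to 60 per library.

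Metabotropic glutamate receptors signal through G proteins, and several act on terminals that release transmitter. Of 8 genes, 4 were tested, all 4 were lower without overlap of the groups, and 3 were called. Grm4, listed in the table as a processed transcript, was at 4.71, 7.76 and 4.95 CPM in the Control libraries and at 1.08, 0.567 and 2.00 CPM in IDPN-4wk libraries (log2FC -2.27 ± 0.42 SE, edgeR Padj 0.00363). Grm7 fell from 4.97 ± 0.553 to 1.12 ± 0.864 CPM (-2.17 ± 0.47 SE, edgeR Padj 0.00884). Grm4 and Grm7 were each over the low-count cutoff in 3 Control and 2 IDPN-4wk libraries. Both belong to the group of receptors that inhibit adenylyl cyclase, and both stayed called when any library was left out. Grm3, of the same broad class, fell from 11.8 ± 1.89 to 5.88 ± 2.15 CPM (-1.004 ± 0.25 SE, edgeR Padj 0.0182) but was not called without Control replicate 2, IDPN-4wk replicate 1 or IDPN-4wk replicate 2.

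Postsynaptic scaffolds hold the receptors in place. Of 18 genes, 15 were tested, 4 were called lower and 0 higher, and the median log2FC was 0.02. Shank2, a large scaffold of the postsynaptic density, fell from 51.1 ± 4.63 to 24.6 ± 3.53 CPM (-1.06 ± 0.12 SE, edgeR Padj 2.07e-04), and it alone of the 4 was called in all 6 fits that left out a library. Shank1 (-1.69, edgeR Padj 0.0273), Dlg2, which encodes PSD-93 (-1.09, edgeR Padj 0.0423), and Grip1, a binding partner of GluA2 and GluA3 (-1.07, edgeR Padj 0.0438), were called with all 6 libraries. Shank1 was tested only through Control, with 3 Control and 0 IDPN-4wk libraries over the low-count cutoff. Leaving out a library ended the call of Shank1 in 6 of 6 fits, of Dlg2 in 5 (all but that without IDPN-4wk replicate 3) and of Grip1 in 5 (all but that without IDPN-4wk replicate 2). Grip1 was also not called with library size alone (edgeR Padj 0.0551) or by DESeq2 (Padj 0.0578), and it was not tested where a mean count of at least 50 was asked for. Dlg4, which encodes PSD-95, had a log2FC of 0.37 (edgeR Padj 0.373).

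Among 17 genes of receptor transport, clustering and RNA editing, 15 were tested, with 1 called in each direction and a median log2FC of 0.04. Nsg2, an endosomal protein that binds AMPA receptors, fell from 128 ± 10.4 to 59.4 ± 9.15 CPM (-1.10 ± 0.11 SE, edgeR Padj 9.53e-05). The study lists Nsg2 among genes lower in all of its models, a list that rests partly on these libraries, so its direction here is not independent evidence. Nptxr, a pentraxin receptor that clusters AMPA receptors, rose narrowly past the thresholds (0.60 ± 0.18 SE, edgeR Padj 0.0411) and kept its call in 1 of 6 fits with a library left out, that without IDPN-4wk replicate 3. Adarb1, whose enzyme edits the Gria2 transcript at the pore site, had means of 16.2 ± 2.38 CPM (Control) and 17.5 ± 3.55 CPM after IDPN (0.12 ± 0.17 SE, edgeR Padj 0.674). Editing itself was not measured by gene counts.

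Ligands of delta receptors gave no call among the 3 genes tested of 8. Cbln1, which bridges neurexins to delta receptors, was at 5.37 ± 1.048 CPM without IDPN and 4.79 ± 1.047 CPM with it (edgeR Padj 0.681), and Cbln2 had a log2FC of -0.90 (SE 0.29, edgeR Padj 0.0540). At an unadjusted p under 0.05 there were 2 genes, Cbln2 and C1ql2, given without the share over all genes tested. C1ql2 was over the cutoff of the low-count filter in 3 Control and 0 IDPN-4wk libraries. It was thus tested only through the group where it was high.

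Glutamate supply and clearance was the last list, with 8 of 10 genes tested. Slc17a8, which also stands among the HC markers, was at 53.4, 74.9 and 59.5 CPM in the Control libraries and at 10.1, 9.39 and 12.4 CPM in IDPN-4wk libraries, and was the only gene of the list called (log2FC -2.56 ± 0.15 SE, edgeR Padj 8.48e-06). The glial and supporting cell transporter Slc1a3 was lower by less than the fold change threshold, from 891 ± 34.3 to 709 ± 52.4 CPM (-0.33 ± 0.08 SE, edgeR Padj 0.0127).

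**Figure D4:**
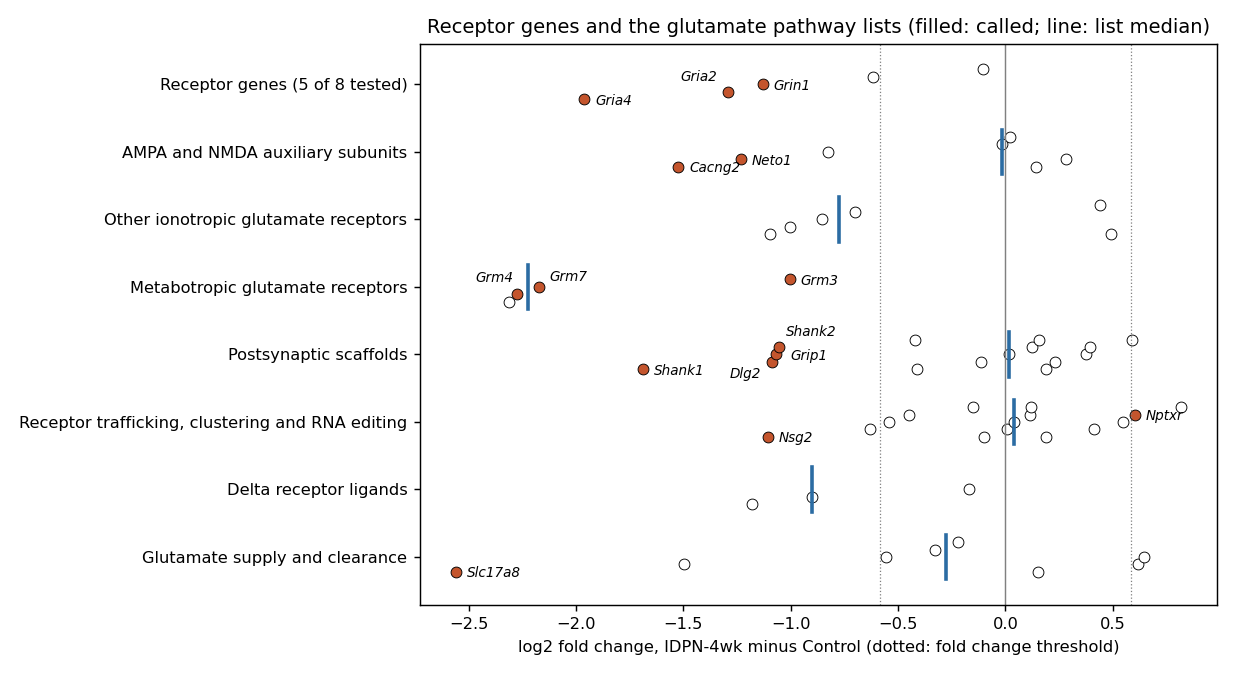
Each point is a tested gene, placed by its log2FC (IDPN-4wk minus Control, horizontal axis) in rows for the receptor genes and the 7 pathway lists. Filled points were called and carry their symbol, blue lines are list medians and dotted lines mark the fold change threshold. Scaffold and trafficking lists centre at 0.02 and 0.04, whereas the median of the metabotropic receptors is -2.22. Of the 4 metabotropic receptor genes tested, 1 was over the low-count cutoff in all 6 libraries.

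The genes whose levels followed each receptor gene most closely were found by Pearson's r of log2 CPM over the 6 libraries. For Gria4 these were Pcdhb12 (r = 0.999), a clustered protocadherin that resembles its neighbours in sequence and can share reads with them, and Hsd17b7 (0.999). For Gria2 they were Sod3, an extracellular superoxide dismutase (0.999), and Dpp10 (0.998). For Grin1 they were Lrrc8b (0.999) and Pttg1ip (0.995), for Gria3 Rev3l (0.994) and Gpc3 (0.992), and for Grin2b Litaf (0.998) and Nup133 (0.986). Where the groups are far apart, r mainly reflects that gap, and 647 named genes had an r over 0.95 with Gria4 and 591 with Gria2. The number was 149 for Grin1, 43 for Gria3 and 15 for Grin2b.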

How the data were processed

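RNA of 6 rats was sequenced from SMART-seq2 libraries. Per the labels and the study's methods, reads were aligned by the authors to Rnor6.0 using STAR 2.5.3a, and RSEM gave the estimates per gene. The submitters' processing notes give RSEM as 1.3.0, and the study's methods name another version. The deposited expected counts were whole numbers, and rounding changed 0 of them. RSEM divides reads shared by paralogs, and the library protocol keeps no strand.

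Low genes were removed by filterByExpr (at least 10 counts, total of at least 15). After TMM scaling, groups were tested by quasi-likelihood in edgeR 4.0.16 (R 4.3.3) with Benjamini-Hochberg adjustment (Padj) over 14352 genes. The SE came from the quasi F statistic. The procedure was tested on simulated data. Log2 CPM used a prior count of 2. Alternatives were DESeq2 1.42.0, other scalings and filters, glmTreat, an adjusted p alone and leaving out each library.

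Receptor genes and lists were chosen with earlier results of these data known. Named list genes were the most abundant in Control, up to 3 called in each direction with the smallest p, and those needed to complete a count. Other genes, including Grik2, Grik5, Grin3b, Dlg4, Adarb1, Cbln2, Slc1a3 and the markers beyond Myo7a, Otof, Nefl and Tubb3, were chosen after their values were seen. Rows for Gsg1l, Shisa9 and Dct were not analysed here, and some list genes are not reported here. Animals were the replicates.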

Additional observations from a re-analysis of the deposited data

How the results depend on the processing

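The log2-Fold changes of Gria2, Gria3, Gria4, Grin1 and Grin2b moved by less than 1 within-group SD in every setting that estimated them anew. Leaving out a library can move a group mean only by a part of that SD, so this bound could hardly fail there. When a library was left out, Gria2 ranged from -1.40 to -1.16, Gria3 from -0.89 to -0.50 and Gria4 from -2.14 to -1.86. Grin1 ranged from -1.29 to -0.80 and Grin2b from -0.60 to 0.22. With library size alone, which moved the median of all genes to 0.13, Gria4 was at -1.85 and Gria2 at -1.18. Called receptor genes numbered from 2 to 4 over the fits that left out a library, 4 with DESeq2 and 2 with glmTreat, a test against the fold change itself.

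Over the whole table, 950 genes were called lower and 444 higher, and 780 and 762 with library size alone. glmTreat called 354 and 99, and an adjusted p alone 1646 and 1132. Leaving out a library gave from 768 to 1095 lower and from 317 to 486 higher. In the pathway lists, lower genes numbered 7 with a mean count of at least 50 and 4 with glmTreat, in place of 11, and fewer genes were tested in the first. Higher genes numbered 3 with library size alone, 2 with upper quartile scaling or an adjusted p alone and 0 with glmTreat, in place of 1. Leaving out a library gave from 5 to 14 lower and from 0 to 2 higher genes, the fewest lower without Control replicate 2. Counts of single lists varied by a few genes, and the cause was not tested. Subunit shares per length were not run, since no transcript lengths were used. No paired analysis was run, since the groups are different animals and the labels name no pairs. Replicate numbers used here follow the order of the libraries and link no animal of 1 group to the other.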

Other observations

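The following genes of the pathway were under the filter on low counts and were picked after their values were seen. Cnih3, a cornichon that accompanies AMPA receptors, had 10, 28 and 29 counts in the Control libraries and 0, 2 and 3 counts in the IDPN-4wk libraries. Grm5 and Cacng3 had 0 counts in all 6 libraries, which allows a level of up to 0.155 to 0.216 CPM depending on the library.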
